A study of Mus musculus and Homo sapiens with 20 samples.

Results

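Mitosis and G2/M genes were followed in 3 cell lines after inhibition of the HSP90 chaperones. The 53 genes were taken as the rows of the deposited count tables whose gene symbol equals a listed name, ignoring case, out of 63568 rows for K562 and 43626 rows for each mouse line. All 53 passed the filter on low counts in K562, among 13456 genes tested, and in MEF, among 12340. In HPC-7, 52 of 53 passed, among 11703 genes tested, and the remaining one, Pttg1, had no counts. The study treated cells with NVP-AUY922, which occupies the ATP pocket of HSP90, for 16 h, and sequenced their RNA.

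K562 is a human erythroleukaemic line from chronic myeloid leukaemia that carries the BCR-ABL1 fusion kinase, and its HSP90i group received 300 nM. MEF are mouse embryonic fibroblasts, and their HSP90i group received 200 nM. HPC-7 is a mouse haematopoietic progenitor line, and its HSP90i group received 50 nM. Each group had 3 libraries, and each line had 3 Control libraries, whose count columns are named for DMSO, the solvent. The labels give no strain, passage or clone. Line, species and dose change together and cannot be told apart. The labels do not say whether replicates came from separate cultures, so p-values measure the spread between these libraries, which may be technical.

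Cells enter mitosis when CDK1 bound to cyclin B is activated by CDC25 phosphatases. Kinases of the Polo, Aurora and NEK families then build the spindle, the checkpoint holds anaphase until kinetochores are attached, and the anaphase-promoting complex (APC/C) ends mitosis by degrading cyclin B and securin. The transcripts of this machinery peak in G2 and M. Their promoters are known for a cell cycle homology region (CHR), bound by the MuvB complex in its DREAM and B-MYB-FOXM1 forms, and for CCAAT boxes bound by NF-Y. In bulk libraries, fewer cells in G2 and M and less of these RNAs per cell cannot be told apart.

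Mouse promoters of the members were searched for both motifs. RefSeq (GRCm38.p6) sequences from 250 bases before to 50 bases after the gene start were given for 48 promoters of 44 members. The CHR motif was searched as TTTGAA on both strands (TTCAAA on the other), and the CCAAT motif as CCAAT on both strands (ATTGG on the other). Other spellings of the CHR were not searched, so a promoter without a match may still hold a CHR. A match of one can share at most a single base with a match of the other. A CHR motif stood in 34 of 48 member promoters (70.8%), against 17.9% of all 32851 promoters. A CCAAT motif stood in 38 (79.2%), against 37.4%, and both stood in 30 (62.5%), against 6.95%. Within 50 bases of the start, 31 member promoters held a CHR motif (64.6%), against 4.94% of all. In 18 (37.5%) a CHR motif began 25 to 45 bases after the beginning of a CCAAT motif, against 0.773% of all, a spacing chosen after the sequences were seen. Some members, such as Ect2, Prc1 and Bub3, had overlapping promoter windows, so the same site was counted in each. Of the 44 genes, 31 held a CHR motif, 34 a CCAAT motif and 27 both. A CHR motif within 50 bases of the start was held by 29 genes, and the spacing by 15. Promoters of Birc5, Mad2l1, Ncaph, Nuf2, Nusap1 and Pttg1 held neither motif. AURKB, CCNA2, CDC25C, DLGAP5, FOXM1, INCENP, KIF20A, SMC4 and TPX2 had no entry.

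**Figure D1:**
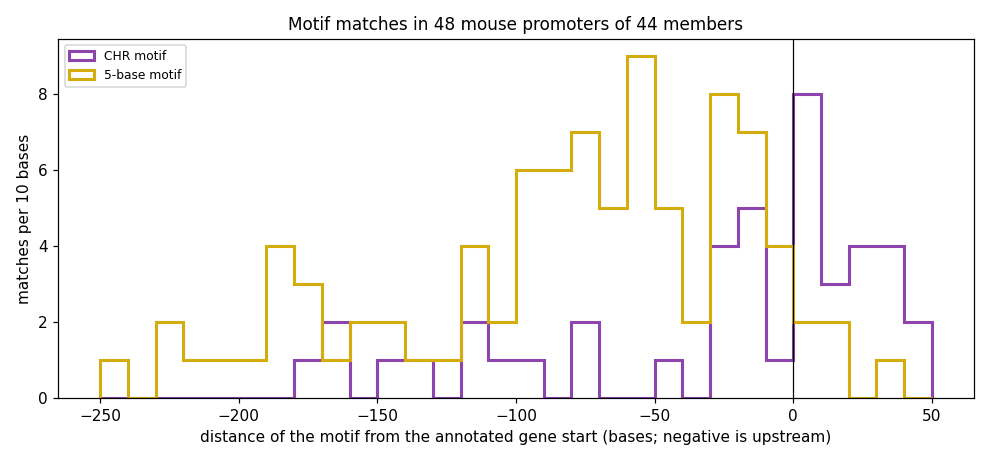
Positions of motif matches in the 48 mouse promoters, in bins of 10 bases, with distance from the annotated gene start in bases on the horizontal axis and the number of matches on the vertical axis. CHR matches gather within 50 bases of the start, where 31 of the 48 promoters hold one, and the median position is 69.5 bases before the start for 90 matches of the CCAAT motif (the 5-base motif) and 5 bases before it for 43 CHR matches. Sites in overlapping promoter windows of the same gene are counted in each window.

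The 120 bases before the gene start are shown for 9 members whose responses are described below in every library, with CHR and CCAAT matches in capitals. They are given 5′ to 3′ on the strand of the gene. For Cenpa, whose RefSeq gene interval begins at chr5:30666877, the last printed bases lie inside that interval. Cdk1 lies at chr10:69352913-69353032 on the minus strand, Ccnb1 at chr13:100786487-100786606 on the minus strand, Cks2 at chr13:51645112-51645231 on the plus strand, Plk1 at chr7:122159315-122159434 on the plus strand, Cdc20 at chr4:118437344-118437463 on the minus strand, Fbxo5 at chr10:5805466-5805585 on the minus strand, Cenpa at chr5:30666766-30666885 on the plus strand, Mki67 at chr7:135716380-135716499 on the minus strand and Top2a at chr11:99024190-99024309 on the minus strand (GRCm38.p6).
Cdk1: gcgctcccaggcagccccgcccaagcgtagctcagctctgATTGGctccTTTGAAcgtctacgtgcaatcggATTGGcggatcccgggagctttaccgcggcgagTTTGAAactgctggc
Ccnb1: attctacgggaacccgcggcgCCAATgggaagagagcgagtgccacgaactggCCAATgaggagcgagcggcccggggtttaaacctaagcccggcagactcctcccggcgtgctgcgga
Cks2: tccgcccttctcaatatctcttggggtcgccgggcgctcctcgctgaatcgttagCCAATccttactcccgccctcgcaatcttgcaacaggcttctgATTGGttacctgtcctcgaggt
Plk1: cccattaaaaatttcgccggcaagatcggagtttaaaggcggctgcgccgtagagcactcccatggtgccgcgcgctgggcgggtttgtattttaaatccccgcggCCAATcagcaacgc
Cdc20: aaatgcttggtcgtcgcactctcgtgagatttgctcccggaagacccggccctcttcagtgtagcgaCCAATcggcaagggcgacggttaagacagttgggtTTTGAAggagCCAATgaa
Fbxo5: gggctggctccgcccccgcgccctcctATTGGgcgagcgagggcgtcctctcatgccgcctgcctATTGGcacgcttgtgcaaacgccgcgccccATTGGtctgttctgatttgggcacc
Cenpa: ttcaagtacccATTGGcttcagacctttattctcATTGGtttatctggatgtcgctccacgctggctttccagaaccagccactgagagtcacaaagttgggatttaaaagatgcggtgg
Mki67: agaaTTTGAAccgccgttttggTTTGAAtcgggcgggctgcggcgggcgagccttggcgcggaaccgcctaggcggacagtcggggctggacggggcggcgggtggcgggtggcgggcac
Top2a: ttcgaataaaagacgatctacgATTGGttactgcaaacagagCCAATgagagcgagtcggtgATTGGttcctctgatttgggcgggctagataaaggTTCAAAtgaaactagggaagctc
Cdk1, Mki67 and Top2a each held 2 CHR matches over the whole window from 250 bases before to 50 after the start. Plk1, Cdc20, Fbxo5 and Cenpa each held 1 there, and Ccnb1 and Cks2 held 0. These matches describe the letters only and were not tested as binding sites.

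The depth of the libraries was 7936066 to 10950573 counts in K562, 10542305 to 22872539 in MEF and 10131491 to 16859394 in HPC-7. Levels below are library-scaled counts (CPM, with edgeR's TMM factors), given in the order of replicates 1 to 3. Each line had its own markers above 1 CPM, 10 of 10 erythroleukaemia markers in K562, 12 of 12 fibroblast markers in MEF and 12 of 12 haematopoietic progenitor markers in HPC-7. The summed levels of these lists also moved with treatment, at 1820 to 2000 CPM in HSP90i and 2150 to 2210 CPM in Control K562 libraries, 28500 to 29600 CPM in HSP90i and 22600 to 23900 CPM in Control MEF libraries, and 5480 to 5870 CPM in HSP90i and 3890 to 3930 CPM in Control HPC-7 libraries. For lists of other cell types, the summed levels of the groups did not overlap for 2 of 5 lists in K562, and for 5 of 5 both in MEF and in HPC-7. HSP90i lay above Control for 1 and below for 1 in K562, above for 3 and below for 2 in MEF, and above for 5 in HPC-7. Among single genes tested in K562, HSP90i lay above Control without overlap in 17.4% and below in 17.8%. These shares were 37% and 39.3% in MEF, and 38.5% and 38.9% in HPC-7. No marker stood above 1 CPM in the endothelial list of MEF or in the epithelial and muscle lists of HPC-7. The HPC-7 epithelial list lay near the floor, at 0.183 to 0.218 CPM in HSP90i and 0 to 0.118 CPM in Control libraries. Of 12 progenitor markers in K562, 11 stood above 1 CPM, with CD34 at 0, and they summed to 801 to 842 CPM in HSP90i and 1280 to 1350 CPM in Control libraries. The 5 epithelial markers overlapped there, at 628 to 697 CPM in HSP90i and 518 to 892 CPM in Control libraries. Of 4 endothelial markers in HPC-7, 1 stood above 1 CPM, with Tek at 0, and they summed to 40.2 to 50.4 CPM in HSP90i and 7.41 to 9.35 CPM in Control libraries. Of 5 epithelial markers in MEF, 3 stood above 1 CPM, with none at 0, and they summed to 18.8 to 19.7 CPM in HSP90i and 7 to 7.61 CPM in Control libraries. The 12 fibroblast markers in HPC-7, 2 above 1 CPM and Thy1 and Twist1 at 0, summed to 272 to 313 CPM in HSP90i and 189 to 211 CPM in Control libraries. The erythroleukaemia markers were not particular to K562. In HPC-7 all 7 with a row stood above 1 CPM, summing to 1120 to 1260 CPM in HSP90i and 995 to 1020 CPM in Control libraries. In MEF they summed to 59.1 to 65.7 CPM in HSP90i and 131 to 154 CPM in Control libraries. Progenitor markers in MEF summed to 195 to 213 CPM in HSP90i and 224 to 273 CPM in Control libraries. Their part in the results was not tested.

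Some libraries stood apart for the members. Each library was set against the mean of the other libraries of its group. K562 Control 1 had a median ratio of 0.864 over the 53 members, and its lowest ratios were ECT2 at 0.484, ANLN at 0.485 and TOP2A at 0.531. Under 0.5 there were 2 of the 53 members, against 6.06% of all genes, and above 2 there were 0, against 3.36%. By these counts the members were not more extreme there than all genes, whose median ratio was 0.98. The highest member ratios were PTTG1 at 1.68, UBE2C at 1.62, AURKB at 1.61 and BIRC5 at 1.54. MEF HSP90i 2 and MEF Control 3 were both low for Cenpf, at 0.210 in HSP90i 2 and 0.152 in Control 3, for Cenpe, at 0.289 in HSP90i 2 and 0.224 in Control 3, and for Mki67, at 0.364 in HSP90i 2 and 0.240 in Control 3. A ratio under 0.5 was found for 3 members in HSP90i 2, against 0.997% of all genes, and for 6 members in Control 3, against 3.24%. The part of these libraries in the spread of those members was not tested beyond leaving each out. HPC-7 HSP90i 2 was high, with a median ratio of 1.5 over 52 members and 9 members above 2, against 2.44% of all genes.

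Summed over the members, counts were higher with HSP90i in K562 and lower in both mouse lines. As a share of all counts they took 0.884%, 0.908% and 0.934% in HSP90i K562 libraries, against 0.628%, 0.752% and 0.788% in Control. In MEF they took 0.220%, 0.195% and 0.236% in HSP90i libraries, against 0.929%, 0.955% and 0.815% in Control. The HPC-7 shares were 0.220%, 0.313% and 0.224% in HSP90i libraries, against 0.886%, 0.867% and 0.844% in Control. The HSP90i shares lay above all Control shares in K562 and below all Control shares in both mouse lines.

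HSP90i was compared with Control in each line with edgeR's quasi-likelihood test, adjusted by Benjamini-Hochberg over all genes of the line, and a gene was called at an adjusted p below 0.05. In K562, 16 of 53 members rose, against 5.11% of all genes tested. None of the 53 fell, against 5.97% of all genes, and DESeq2 called 0 lower. At an unadjusted p below 0.05, 37 were higher and 0 were lower, and the share of all genes at that threshold was not computed. The median member log2 fold change was 0.42 (1.34-fold), beside -0.02 over all genes. In 41 members every HSP90i library was above every Control library, against 17.4% of all genes, and in 0 every HSP90i library was below, against 17.8%. Of the 37 members that were not called, 34 had a positive log2 fold change, and 25 had groups that did not overlap.

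In MEF, 52 of 53 members fell, against 38.2% of all genes tested, and 0 rose, against 35.1%. No member was higher at an unadjusted p below 0.05 or with DESeq2. The median log2 fold change was -2.06 (0.239-fold), beside -0.01 over all genes, and 50 members fell by at least 2-fold, against 13.1% of all genes. In 50 members every HSP90i library was below every Control library, against 39.3% of all genes, and in 0 every one was above, against 37%. In HPC-7, 51 of 52 members fell, against 36.6% of all genes tested, and 1 rose, against 36.5%. The median log2 fold change was -1.98 (0.253-fold), beside -0.0024 over all genes, and 46 members fell by at least 2-fold, against 13.7% of all genes. DESeq2 made the same counts of 51 and 1. All HSP90i libraries lay below all Control libraries in 51 members, against 38.9% of all genes, and above them in 1, against 38.5%.

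**Figure D2:**
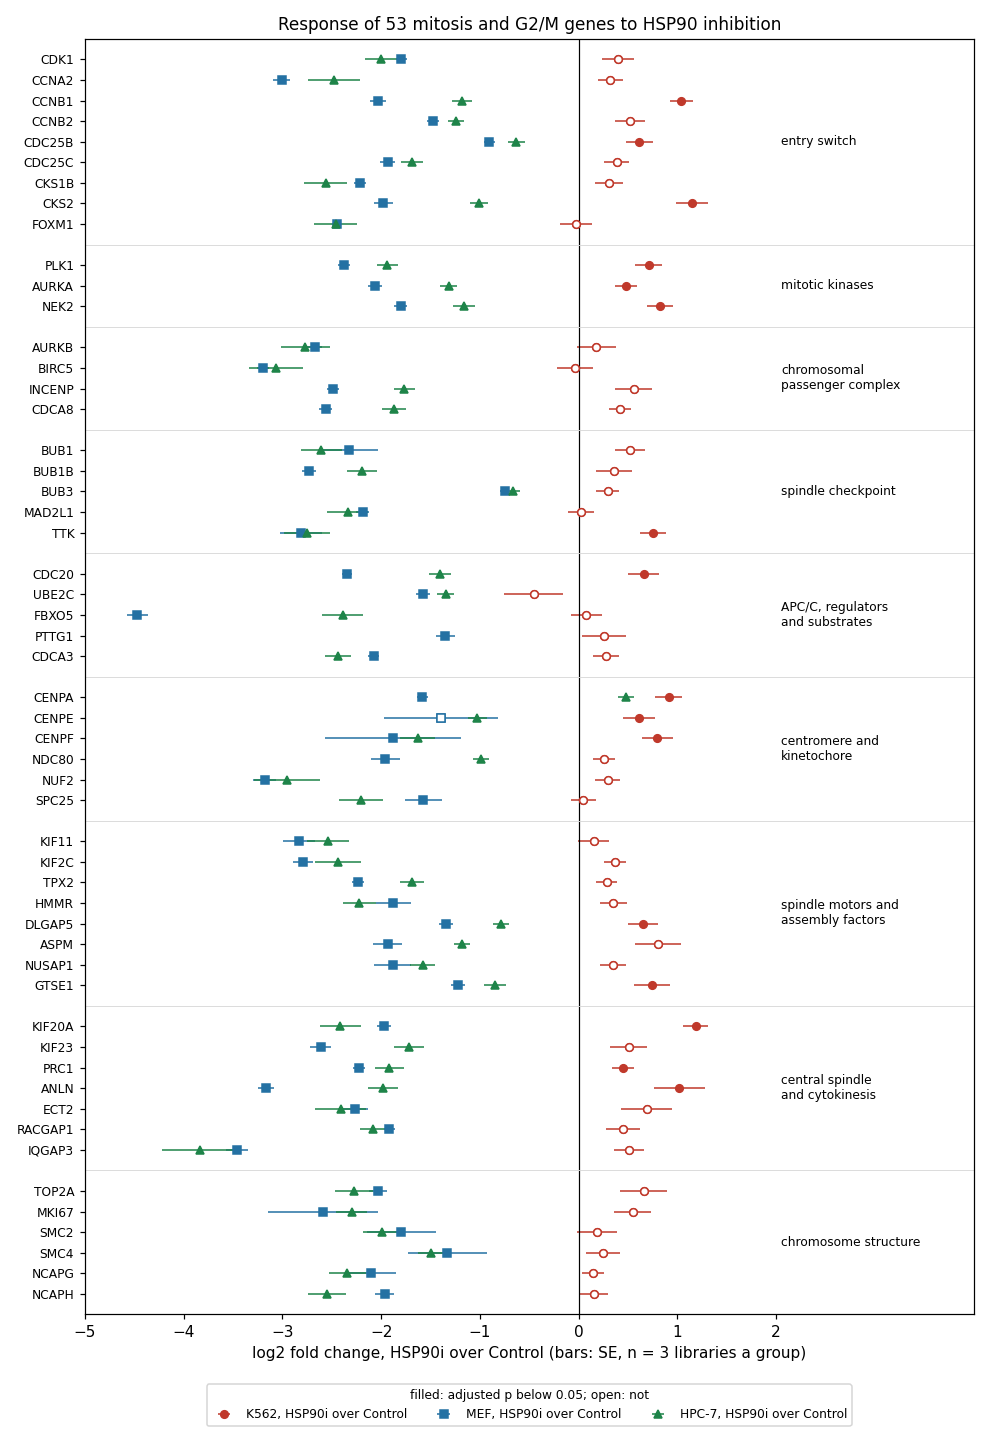
The log2 fold change of HSP90i over Control (horizontal axis, bars are SE, 3 libraries a group) for each of the 53 members, grouped by role, in K562 (circles), MEF (squares) and HPC-7 (triangles). Filled symbols passed the adjusted p of 0.05; the K562 points lie right of 0 in 50 of 53 members, and the mouse points lie left of it in all but CENPA in HPC-7.

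The K562 calls rested on individual libraries more than the mouse calls did. Without HSP90i 1, 2 or 3, 4, 4 or 5 members rose, without Control 1 it was 39, and without Control 2 it was 6. The 4 members called with any library left out were CCNB1, CENPA, CKS2 and KIF20A. DESeq2 called 25. In MEF 50 of 52 calls and in HPC-7 52 of 52 calls remained whichever library was left out.

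Among the 9 genes of the entry switch, 3 rose in K562, and 9 fell in MEF and in HPC-7. The shares of all genes that stand beside this and the other counts by role are the 5.11% that rose in K562, the 38.2% that fell in MEF and the 36.6% that fell in HPC-7. The median of the 9 log2 fold changes was 0.40 for K562, -1.98 for MEF and -1.68 for HPC-7. CCNB1 encodes cyclin B1, the partner of CDK1. In K562 it stood at 96.7, 92.7 and 94.4 CPM in the HSP90i libraries, against 45.2, 45.3 and 47.6 CPM in the Control libraries. The HSP90i libraries were all above all Control libraries, with a log2 fold change of 1.04 ± 0.12 (SE) and an edgeR adjusted p of 0.00152. Mouse Ccnb1 stood in MEF at 54.2, 54.6 and 65.2 CPM in the HSP90i libraries, against 222, 244 and 244 CPM in the Control libraries. Every treated MEF library was below every Control one, and Ccnb1 fell by 2.03 ± 0.08 on the log2 scale (edgeR adjusted p = 9.2e-08). In HPC-7 it stood at 73.6, 100.5 and 86.6 CPM in the HSP90i libraries, against 191, 196 and 204 CPM in the Control libraries, again without overlap, with HSP90i 2 the highest treated library. There it fell by 1.18 ± 0.10 (edgeR adjusted p = 5.29e-06).

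CDK1, the kinase that drives entry, was not called in K562, where it stood at 329, 379 and 292 CPM in the HSP90i libraries, against 209, 291 and 259 CPM in the Control libraries. The groups did not overlap, HSP90i 3 and Control 2 lying next to each other, and the log2 fold change was 0.40 ± 0.16 (edgeR adjusted p = 0.153). MEF levels of Cdk1 were 109, 112 and 118 CPM in the HSP90i libraries, against 369.5, 399.5 and 409 CPM in the Control libraries. HPC-7 levels were 39.4, 63.3 and 38.6 CPM in the HSP90i libraries, against 183, 188 and 193 CPM in the Control libraries. Both mouse lines showed no overlap, and Cdk1 fell by 1.80 ± 0.06 in MEF (edgeR adjusted p = 3.21e-08) and by 2.0 ± 0.16 in HPC-7 (edgeR adjusted p = 3.32e-06).

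CKS2, a small subunit that binds CDK1, stood in K562 at 135, 155 and 121 CPM in the HSP90i libraries, against 72.5, 58 and 55.1 CPM in the Control libraries. All treated libraries were above all Control ones, and it rose by 1.15 ± 0.16 on the log2 scale (edgeR adjusted p = 0.00383). Cks2 stood in MEF at 20.5, 18.9 and 22.5 CPM in the HSP90i libraries, against 80.2, 91.1 and 72.5 CPM in the Control libraries. In HPC-7 it stood at 46.1, 57.2 and 52.4 CPM in the HSP90i libraries, against 101, 102 and 109 CPM in the Control libraries. Neither mouse line had an overlap, and Cks2 fell by 1.98 ± 0.10 in MEF (edgeR adjusted p = 3.23e-07) and fell by 1.01 ± 0.09 in HPC-7 (edgeR adjusted p = 5.5e-06).

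FOXM1 encodes a forkhead factor that activates G2/M genes with B-MYB and MuvB. Its K562 levels were 83.7, 69.7 and 83 CPM in the HSP90i libraries, against 94.7, 67.9 and 78.2 CPM in the Control libraries. These groups overlapped, and the log2 fold change was -0.03 ± 0.16 (edgeR adjusted p = 0.938). In MEF, where it had the smallest p of this role, Foxm1 stood at 35.1, 35.4 and 33.6 CPM in the HSP90i libraries, against 192, 189.6 and 188 CPM in the Control libraries. HPC-7 levels were 20.2, 39.1 and 20.2 CPM in the HSP90i libraries, against 136, 149.9 and 149 CPM in the Control libraries. No mouse library crossed between groups, and Foxm1 fell by 2.45 ± 0.05 in MEF (edgeR adjusted p = 5.93e-09) and by 2.46 ± 0.21 in HPC-7 (edgeR adjusted p = 4.75e-06).

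The smallest p of this role in HPC-7 belonged to Ccnb2, cyclin B2, at 61.7, 62.6 and 54.2 CPM in the HSP90i libraries, against 136, 137 and 149.7 CPM in the Control libraries. It fell by 1.24 ± 0.08 with no overlap (edgeR adjusted p = 1.08e-06). CDC25B, a phosphatase that activates CDK1, rose in K562 by 0.62 ± 0.14 (edgeR adjusted p = 0.0245) and was among the smallest changes in the mouse lines, at -0.90 ± 0.06 in MEF and -0.63 ± 0.09 in HPC-7. CCNA2, cyclin A2, was among the largest in MEF at -3.0 ± 0.09, and was at 0.32 ± 0.13 in K562 without a call. CCNB2, CDC25C and CKS1B were not called in K562, at 0.52, 0.39 and 0.30. CKS1B had a second K562 row with 9 to 21 counts per library and a log2 fold change of 0.36 ± 0.28, also not called.

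All 3 genes of the mitotic kinase group, PLK1, AURKA and NEK2, rose in K562 and fell in both mouse lines. Of the kinases placed in other groups, TTK also rose in K562, while CDK1, AURKB and BUB1 were not called there. Role medians of the log2 fold change were 0.71 for K562, -2.06 for MEF and -1.32 for HPC-7. PLK1, the Polo kinase of mitotic entry and centrosome maturation, stood in K562 at 229, 200.5 and 221 CPM in the HSP90i libraries, against 151, 123 and 124 CPM in the Control libraries. The groups did not overlap, and PLK1 rose by 0.71 ± 0.13 (edgeR adjusted p = 0.0142). Plk1 stood in MEF at 27.9, 28.8 and 31 CPM in the HSP90i libraries, against 146, 149.6 and 158 CPM in the Control libraries. It stood in HPC-7 at 24.1, 27.9 and 20.8 CPM in the HSP90i libraries, against 87.3, 94.2 and 97.9 CPM in the Control libraries. Treated libraries were below Control in both lines throughout, and Plk1 fell by 2.38 ± 0.06 in MEF (edgeR adjusted p = 1.49e-08) and by 1.94 ± 0.11 in HPC-7 (edgeR adjusted p = 4.91e-07). NEK2, a centrosomal kinase, had the smallest p of the kinases in K562, at 83.6, 88.3 and 78.1 CPM in the HSP90i libraries, against 42.5, 51.8 and 46.5 CPM in the Control libraries. It rose by 0.83 ± 0.13 without overlap (edgeR adjusted p = 0.00729). AURKA, the spindle pole Aurora kinase, rose by 0.48 ± 0.11 in K562 (edgeR adjusted p = 0.0313) and fell by 2.06 ± 0.07 in MEF and by 1.32 ± 0.08 in HPC-7.

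**Figure D3:**
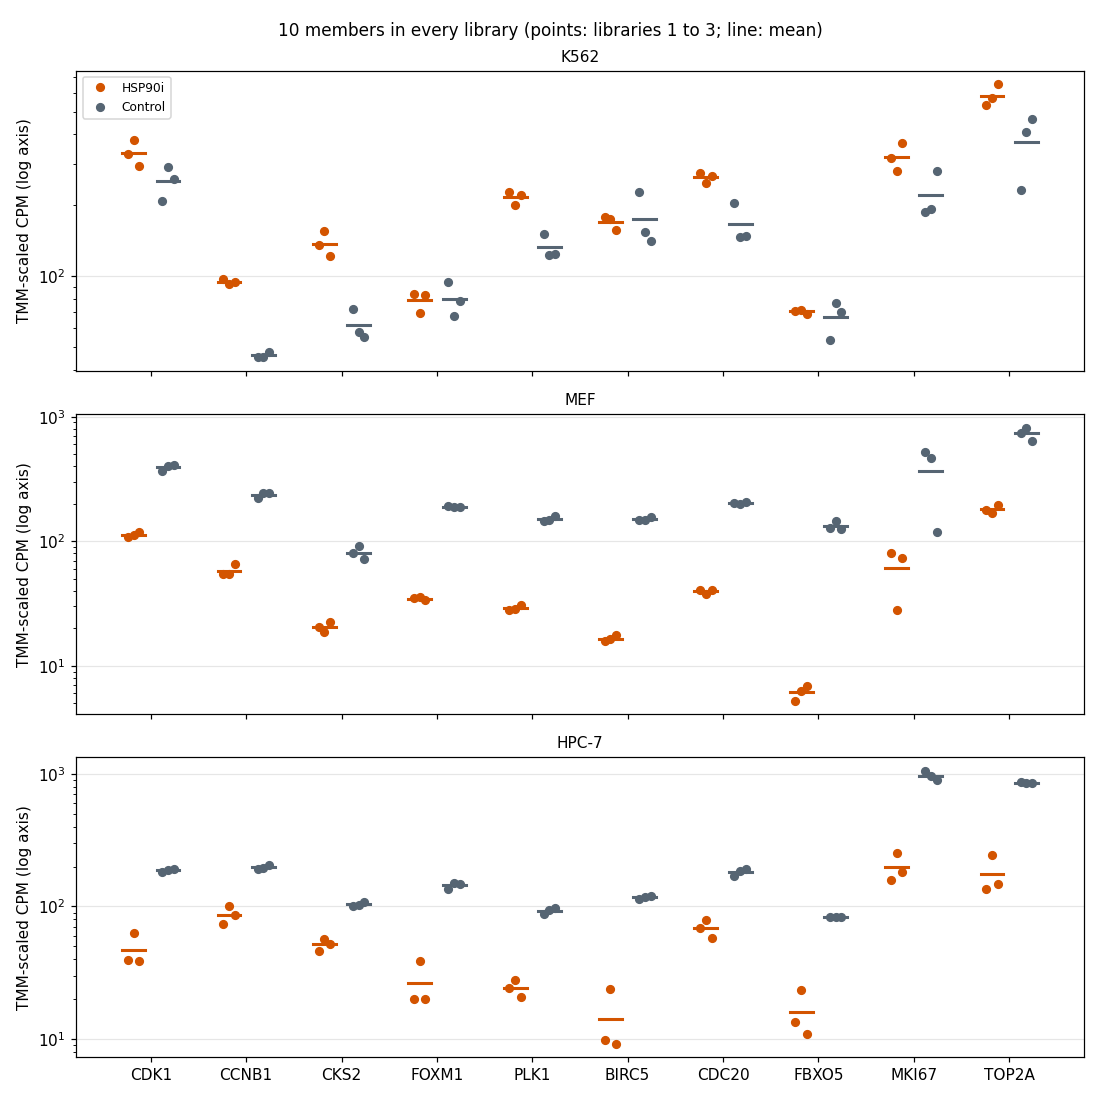
TMM-scaled CPM (log axis) of 10 members in every library of K562, MEF and HPC-7, HSP90i libraries in orange left of Control libraries in grey, with a line at the mean of each group. In K562 CDK1, CCNB1, CKS2, PLK1, CDC20, MKI67 and TOP2A have all treated points above all Control points, while FOXM1, BIRC5 and FBXO5 overlap, and in both mouse lines all 10 have all treated points below all Control points.

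None of the 4 subunits of the chromosomal passenger complex was called in K562 by edgeR, where 2 were higher at an unadjusted p below 0.05 and 2 by DESeq2, and 4 fell in each mouse line. Their role medians were 0.30 for K562, -2.62 for MEF and -2.32 for HPC-7. BIRC5 (survivin), the subunit that targets the complex to centromeres, stood in K562 at 178, 174 and 157 CPM in the HSP90i libraries, against 228, 153 and 142 CPM in the Control libraries. Control 1 was the highest of the 6 libraries and the groups overlapped, with a log2 fold change of -0.04 ± 0.19 (edgeR adjusted p = 0.924). Birc5 stood in MEF at 15.8, 16.4 and 17.5 CPM in the HSP90i libraries, against 149, 149 and 157 CPM in the Control libraries. In HPC-7 it stood at 9.88, 23.7 and 9.22 CPM in the HSP90i libraries, against 113, 118 and 120.3 CPM in the Control libraries. No mouse library crossed, and Birc5 fell by 3.20 ± 0.06 in MEF (edgeR adjusted p = 5.93e-09) and by 3.06 ± 0.27 in HPC-7 (edgeR adjusted p = 5.6e-06).

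CDCA8 (borealin) had the smallest K562 p of the complex, at 276, 266 and 271 CPM in the HSP90i libraries, against 192, 196 and 219 CPM in the Control libraries. The groups did not overlap, but the log2 fold change of 0.42 ± 0.11 was not called (edgeR adjusted p = 0.0508). Incenp, the scaffold of the complex, had the smallest HPC-7 p, at 61, 76.4 and 55.4 CPM in the HSP90i libraries, against 216, 221 and 218 CPM in the Control libraries. It fell by 1.77 ± 0.11 without overlap (edgeR adjusted p = 7.69e-07). AURKB, the kinase of the complex, was at 0.18 ± 0.20 in K562 without a call, and fell by 2.67 ± 0.08 in MEF and by 2.77 ± 0.25 in HPC-7.

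Of the 5 spindle checkpoint genes, 1 rose in K562 and 5 fell in each mouse line, with role medians of 0.36 for K562, -2.32 for MEF and -2.34 for HPC-7. TTK, the kinase MPS1 that starts checkpoint signalling, stood in K562 at 75.5, 83.2 and 76.4 CPM in the HSP90i libraries, against 41.2, 48.7 and 49.4 CPM in the Control libraries. Treated libraries were all above Control, and TTK rose by 0.75 ± 0.13 (edgeR adjusted p = 0.0102). Bub1b, which encodes the APC/C inhibitor BUBR1, had the smallest p of the role in both mouse lines. Its MEF levels were 22.4, 23 and 25.9 CPM in the HSP90i libraries, against 151, 156 and 164 CPM in the Control libraries. HPC-7 levels were 34.7, 55.8 and 37.7 CPM in the HSP90i libraries, against 191, 201 and 193 CPM in the Control libraries. Neither line had an overlap, and it fell by 2.73 ± 0.07 in MEF (edgeR adjusted p = 1.49e-08) and by 2.20 ± 0.15 in HPC-7 (edgeR adjusted p = 1.4e-06). BUB3, their binding partner, changed least in MEF of all members called, at -0.75 ± 0.05, and was at -0.67 ± 0.07 in HPC-7. BUB1, BUB1B, BUB3 and MAD2L1 were at 0.52, 0.36, 0.30 and 0.02 in K562 without a call.

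In the APC/C group, 1 of 5 genes rose in K562, 5 fell in MEF, and 4 of the 4 tested fell in HPC-7. The role medians were 0.26 for K562, -2.08 for MEF and -1.90 for HPC-7. CDC20 activates the APC/C at anaphase and had the smallest p of the group in K562 and MEF. Its K562 levels were 274, 248 and 266 CPM in the HSP90i libraries, against 204, 147 and 148 CPM in the Control libraries. MEF levels were 40.7, 38.1 and 40.7 CPM in the HSP90i libraries, against 201, 200.1 and 208 CPM in the Control libraries. HPC-7 levels were 69, 79.2 and 57.7 CPM in the HSP90i libraries, against 170.1, 184 and 192 CPM in the Control libraries. CDC20 groups did not overlap in any line, and it rose by 0.66 ± 0.16 in K562 (edgeR adjusted p = 0.0317) and fell by 2.35 ± 0.05 in MEF (edgeR adjusted p = 9.47e-09) and by 1.40 ± 0.11 in HPC-7 (edgeR adjusted p = 2.55e-06).

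FBXO5 encodes EMI1, which inhibits the APC/C before mitosis. In K562 it stood at 70.9, 72 and 69.2 CPM in the HSP90i libraries, against 53.6, 76.8 and 70.2 CPM in the Control libraries. The groups overlapped and the log2 fold change was 0.08 ± 0.15 (edgeR adjusted p = 0.788). Fbxo5 had the largest MEF change of all members, at 5.27, 6.22 and 6.94 CPM in the HSP90i libraries, against 128, 147 and 126 CPM in the Control libraries. HPC-7 levels were 13.5, 23.3 and 11 CPM in the HSP90i libraries, against 82.6, 83 and 82.8 CPM in the Control libraries. Neither mouse line showed an overlap, and Fbxo5 fell by 4.47 ± 0.11 in MEF (edgeR adjusted p = 1.34e-08) and by 2.39 ± 0.21 in HPC-7 (edgeR adjusted p = 4.39e-06).

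Cdca3, a trigger of mitotic entry that recruits the ligase for WEE1, had the smallest HPC-7 p, at 19.3, 26.8 and 17.7 CPM in the HSP90i libraries, against 114, 113 and 118 CPM in the Control libraries. It fell by 2.44 ± 0.13 without overlap (edgeR adjusted p = 4.34e-07). UBE2C, the ubiquitin-conjugating enzyme of the APC/C, was the only K562 member with a negative log2 fold change beyond -0.05, at -0.45 ± 0.30. It was not called, at 3.79, 3 and 5.45 CPM in the HSP90i libraries, against 7.48, 4.31 and 4.90 CPM in the Control libraries, and the groups overlapped. PTTG1, the separase inhibitor securin, was at 0.26 ± 0.22 in K562 without a call. Pttg1 had 242 to 1616 counts per MEF library, at 26.9, 22.5 and 28.8 CPM in the HSP90i libraries, against 71.2, 61.5 and 67 CPM in the Control libraries. It fell there by 1.35 ± 0.10 (edgeR adjusted p = 2.6e-06). In HPC-7 it had 0 counts in all 6 libraries, which allows up to 3 counts per library, or 0.178 to 0.296 CPM, for counting error only. Slu7, a splicing factor gene near it in the RefSeq annotation of GRCm38.p6, had 920 to 1788 counts per HPC-7 library.

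Of 6 centromere and kinetochore genes, 3 rose in K562, 5 fell in MEF, and in HPC-7 5 fell and 1 rose. The role medians were 0.45 for K562, -1.73 for MEF and -1.33 for HPC-7. CENPA, the histone H3 variant that marks centromeres, was the member that rose in HPC-7. It stood there at 229, 193 and 208 CPM in the HSP90i libraries, against 145, 148 and 158 CPM in the Control libraries. Every treated library was above every Control library, and Cenpa rose by 0.48 ± 0.08 (edgeR adjusted p = 0.000345). In K562 it stood at 27.3, 28.6 and 29.8 CPM in the HSP90i libraries, against 15.8, 15.9 and 13.8 CPM in the Control libraries. In MEF it stood at 35.4, 33.2 and 37.5 CPM in the HSP90i libraries, against 106, 109.5 and 103 CPM in the Control libraries. Neither overlapped, and CENPA rose by 0.91 ± 0.13 in K562 (edgeR adjusted p = 0.00512) and fell by 1.58 ± 0.06 in MEF (edgeR adjusted p = 7.31e-08). Whether reads were counted by strand is not stated. In HPC-7 the neighbouring gene Slc35f6 had raw counts of 302, 219 and 209 in HSP90i libraries, against 210, 180 and 154 in Control. Raw counts of Cenpa were 3151, 1966 and 2272 in HSP90i libraries, against 2461, 1727 and 1893 in Control. Their RefSeq intervals do not overlap, Slc35f6 ending at chr5:30659729 and Cenpa beginning at chr5:30666877. Whether the 2 genes share reads was not tested.

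CENPE, a kinetochore motor, was the MEF member that was not called. Its levels there were 57.5, 16.4 and 56.2 CPM in the HSP90i libraries, against 168, 140.4 and 34.5 CPM in the Control libraries. The groups overlapped through HSP90i 2 and Control 3, and the log2 fold change was -1.39 ± 0.57 (edgeR adjusted p = 0.0548). Without Control 3 it fell by 1.76 and was called (edgeR adjusted p = 0.000213, with 0.0127 to 0.181 over the other alternatives). CENPF, a kinetochore and nuclear matrix protein, had the same low libraries and overlapping groups, at 39.2, 7.89 and 36 CPM in the HSP90i libraries, against 158, 131 and 22 CPM in the Control libraries. Its fall of 1.88 ± 0.69 was called (edgeR adjusted p = 0.0352) but lost the call without any one of Control 1, Control 2, HSP90i 1, HSP90i 2 or HSP90i 3, with log2 values between -2.24 and -1.39, and was not called by DESeq2 (adjusted p = 0.0874), which called 4 of the 6 genes lower in MEF. Both rose in K562, CENPE by 0.61 ± 0.16 and CENPF by 0.80 ± 0.16, and both fell in HPC-7, by 1.03 ± 0.09 and by 1.63 ± 0.18.

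Nuf2 and Ndc80, subunits of the NDC80 complex that binds microtubules, had the smallest p of the role in one mouse line each. Nuf2 stood in MEF at 9.66, 10.4 and 12.6 CPM in the HSP90i libraries, against 98.3, 108 and 86.8 CPM in the Control libraries. Ndc80 stood in HPC-7 at 31.2, 35.1 and 30.5 CPM in the HSP90i libraries, against 64.2, 62.3 and 64.8 CPM in the Control libraries. Neither had an overlap, and Nuf2 fell by 3.18 ± 0.12 in MEF (edgeR adjusted p = 6.2e-08) while Ndc80 fell by 0.98 ± 0.08 in HPC-7 (edgeR adjusted p = 3.55e-06). NDC80, NUF2 and SPC25 were at 0.26, 0.30 and 0.05 in K562 without a call.

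**Figure D4:**
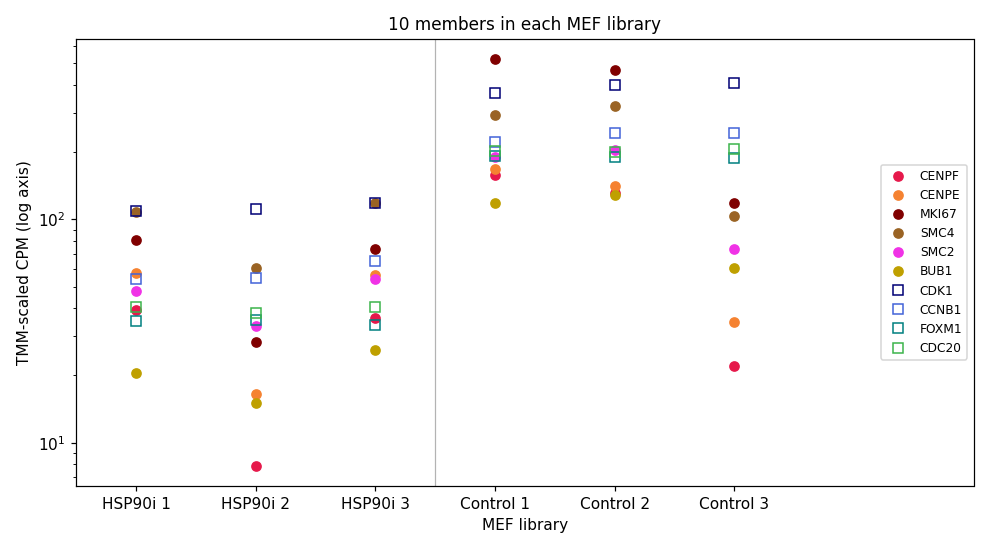
TMM-scaled CPM (log axis) of 10 members in each MEF library, HSP90i 1 to 3 left of Control 1 to 3. CENPF, CENPE, MKI67, SMC4, SMC2 and BUB1 (filled) are low in HSP90i 2 and in Control 3 beside the other libraries of their group, while CDK1, CCNB1, FOXM1 and CDC20 (open squares) stay close to the other libraries there.

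Of 8 spindle motors and assembly factors, 2 rose in K562 and 8 fell in each mouse line, with role medians of 0.36 for K562, -1.91 for MEF and -1.63 for HPC-7. DLGAP5, a spindle assembly factor, had the smallest K562 p, at 84.9, 90.7 and 93.4 CPM in the HSP90i libraries, against 47.1, 60.4 and 63.7 CPM in the Control libraries. It rose by 0.65 ± 0.15 without overlap (edgeR adjusted p = 0.0273). Tpx2, the activator of Aurora A on the spindle, had the smallest MEF p, at 64.5, 62 and 72.1 CPM in the HSP90i libraries, against 298, 313 and 322 CPM in the Control libraries. It fell by 2.23 ± 0.07, also without overlap (edgeR adjusted p = 2.53e-08). Aspm, a spindle pole protein, had the smallest HPC-7 p, at 51.5, 60.5 and 57.5 CPM in the HSP90i libraries, against 133, 130.5 and 121 CPM in the Control libraries. It fell by 1.18 ± 0.08, again without overlap (edgeR adjusted p = 1.55e-06). GTSE1, a microtubule-binding G2 protein, rose in K562 by 0.74 ± 0.18 (edgeR adjusted p = 0.0354). ASPM had a positive K562 value of 0.80 ± 0.23 that was not called, with Control 1 at 89.1 CPM as the lowest library. The motors KIF11 and KIF2C fell by 2.83 and 2.79 in MEF and by 2.54 and 2.43 in HPC-7, and were at 0.15 and 0.37 in K562 without a call. TPX2, HMMR and NUSAP1, which bind spindle microtubules, were at 0.28, 0.35 and 0.35 in K562 without a call.

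Of 7 central spindle and cytokinesis genes, 3 rose in K562 and 7 fell in each mouse line. The role medians were 0.51 for K562, -2.27 for MEF and -2.08 for HPC-7. KIF20A, the central spindle motor MKLP2, had the largest K562 change and the smallest K562 p of all members. It stood at 108, 104 and 120.2 CPM in the HSP90i libraries, against 46, 48.3 and 51.6 CPM in the Control libraries. All treated libraries were above all Control ones, and it rose by 1.19 ± 0.13 (edgeR adjusted p = 0.00125). Kif20a fell in MEF by 1.97 ± 0.07 and in HPC-7 by 2.41 ± 0.21. Anln, the contractile ring scaffold anillin, had the smallest MEF p, at 43.4, 41.1 and 48.9 CPM in the HSP90i libraries, against 394, 429 and 374 CPM in the Control libraries. Without any overlap it fell by 3.17 ± 0.08 (edgeR adjusted p = 1.49e-08).

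ANLN rose in K562 by 1.02 ± 0.26 (edgeR adjusted p = 0.0399), at 199.9, 221 and 225 CPM in the HSP90i libraries, against 62.2, 119 and 138 CPM in the Control libraries. The treated libraries were all above Control, and Control 1 was at 0.485 of the mean of the other Control libraries. PRC1, which bundles the central spindle, rose in K562 by 0.45 ± 0.11 (edgeR adjusted p = 0.04). Racgap1, a GTPase-activating subunit of centralspindlin, had the smallest HPC-7 p, at 37.8, 52.6 and 35.1 CPM in the HSP90i libraries, against 177, 180.3 and 173 CPM in the Control libraries. It fell by 2.08 ± 0.13 without overlap (edgeR adjusted p = 8.97e-07). IQGAP3, a RAC and CDC42 effector, had the largest HPC-7 change of all members at -3.83 ± 0.38, with 5.16, 16.7 and 3.29 CPM in the HSP90i libraries, against 111, 116 and 119.8 CPM in the Control libraries. HSP90i 2 was the highest treated library, far below Control. The log2 fold change of Iqgap3 was -3.46 ± 0.11 in MEF, and IQGAP3 was at 0.51 ± 0.15 in K562 without a call. KIF23, ECT2 and RACGAP1 were at 0.51, 0.69 and 0.45 in K562 without a call.

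None of the 6 chromosome structure genes was called in K562 by edgeR, where 2 were higher at an unadjusted p below 0.05 and 2 by DESeq2. All 6 fell in each mouse line, with role medians of 0.22 for K562, -1.99 for MEF and -2.29 for HPC-7. MKI67 encodes Ki-67, which coats mitotic chromosomes. In K562 it had the smallest p of the group, at 317, 279.8 and 369 CPM in the HSP90i libraries, against 188, 194 and 279 CPM in the Control libraries. The groups did not overlap, HSP90i 2 lying just above Control 3, and the log2 fold change was 0.55 ± 0.18 (edgeR adjusted p = 0.0965). Mki67 stood in MEF at 80.8, 28.1 and 73.6 CPM in the HSP90i libraries, against 522, 466 and 118 CPM in the Control libraries. In HPC-7 it stood at 157, 253 and 182 CPM in the HSP90i libraries, against 1051, 957 and 898 CPM in the Control libraries. Control 3 and HSP90i 2 were the low libraries of their MEF groups, neither line overlapped, and Mki67 fell by 2.59 ± 0.55 in MEF (edgeR adjusted p = 0.00265) and by 2.30 ± 0.16 in HPC-7 (edgeR adjusted p = 1.3e-06).

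TOP2A, the topoisomerase that untangles sister chromatids, stood in K562 at 532, 570.3 and 652 CPM in the HSP90i libraries, against 233, 411 and 466 CPM in the Control libraries. Control 1 was the lowest library, the groups did not overlap, and the log2 fold change of 0.66 ± 0.24 was not called (edgeR adjusted p = 0.113). Top2a had the smallest p of the group in MEF, at 177, 169 and 195 CPM in the HSP90i libraries, against 744, 817 and 644 CPM in the Control libraries. In HPC-7 it stood at 135, 246 and 148 CPM in the HSP90i libraries, against 864, 846 and 847 CPM in the Control libraries. No mouse library crossed, and Top2a fell by 2.03 ± 0.09 in MEF (edgeR adjusted p = 1.78e-07) and by 2.28 ± 0.19 in HPC-7 (edgeR adjusted p = 3.99e-06). The condensin subunits SMC2, SMC4, NCAPG and NCAPH were at 0.18, 0.25, 0.14 and 0.15 in K562 without a call. SMC4 fell in MEF by 1.33 ± 0.40 (edgeR adjusted p = 0.0149), and its log2 fold change of -1.09 without HSP90i 2 was not called.

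The direction was compared between lines gene by gene. The 14 members that rose in K562 and fell in both mouse lines were CCNB1, CDC25B, CKS2, PLK1, AURKA, NEK2, TTK, CDC20, CENPF, DLGAP5, GTSE1, KIF20A, PRC1 and ANLN. They were 14 of the 49 members with a unique symbol tested in all 3 lines, against 1.19% of the 7879 such genes. Of these 14, only CCNB1, CKS2 and KIF20A kept the K562 call whichever library was left out. The MEF call of CENPF also rested on individual libraries and was not made by DESeq2. CENPA rose in K562 and HPC-7 and fell in MEF, and CENPE rose in K562 and fell in HPC-7 with no call in MEF. In 36 members both mouse lines fell and K562 was not called (33 of the 49, against 25.7%), and PTTG1 fell in MEF only among the lines that tested it. The log2 fold change was positive in K562 and negative in MEF for 50 of 53 members, and positive in K562 and negative in HPC-7 for 48 of 52. Over the 7879 genes these signs were found in 26.4% for K562 with MEF and in 25.1% for K562 with HPC-7. Across members, which are not independent and share the libraries of their line, K562 and MEF log2 fold changes had a Pearson r of 0.119 and a Spearman rho of 0.107 (53 members). K562 and HPC-7 had an r of 0.350 and a rho of 0.408 (52 members), and MEF and HPC-7 an r of 0.684 and a rho of 0.697 (52 members).

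**Figure D5:**
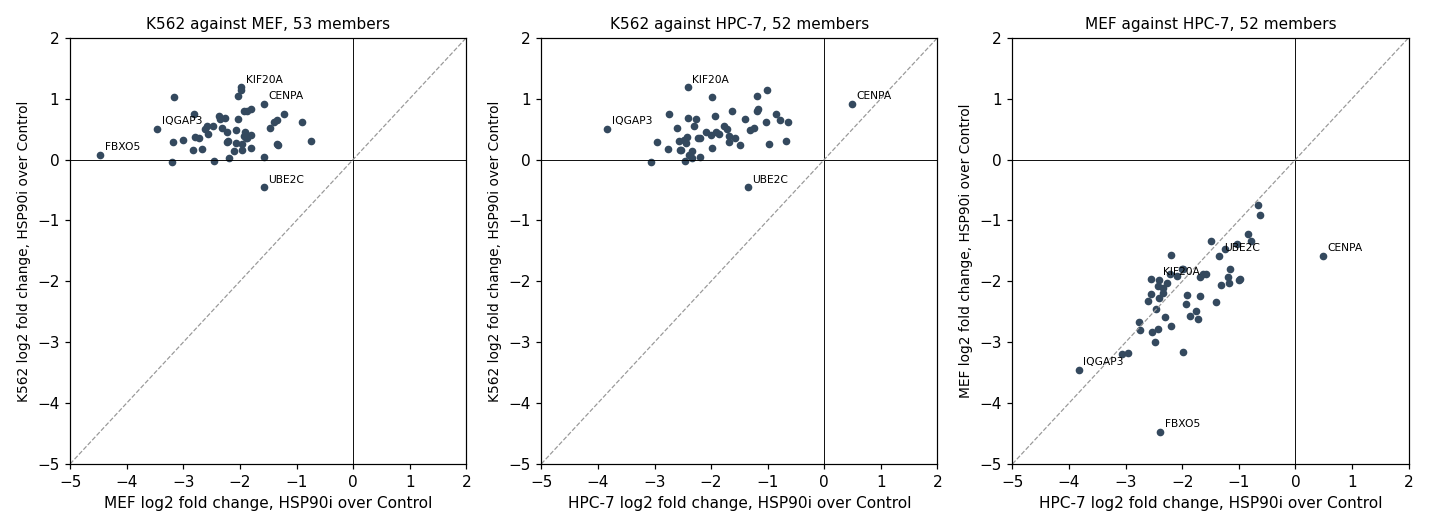
The log2 fold change of HSP90i over Control of each member in one line against another, with K562 against MEF, K562 against HPC-7 and MEF against HPC-7, and a dashed line of equal change. K562 values lie above the dashed line for all members in both K562 panels, and in the third panel FBXO5 and CENPA lie farthest below it.

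The difference between responses was tested as an interaction in one edgeR quasi-likelihood fit of all 18 libraries, over 7879 genes with a unique symbol in all 3 tables and adjusted by Benjamini-Hochberg over them. It covered 49 members, leaving out CDCA3, CKS1B and SPC25, whose symbols had more than one K562 row, and PTTG1. Comparisons with K562 share the K562 libraries. For K562 minus MEF, 49 of 49 members had a higher response in K562, against 32.1% of all genes, and 0 a lower one, against 18.1%. The median difference was 2.69 in log2 units, ranging from 1.04 for BUB3 to 4.54 for FBXO5, beside 0.14 over all genes. For K562 minus HPC-7, 49 of 49 members had a higher response in K562, against 33.9% of all genes, and 0 a lower one, against 22.7%. The median was 2.37, from 0.43 for CENPA to 4.33 for IQGAP3, beside 0.13 over all genes. No member had a lower K562 response at an unadjusted p below 0.05, or with limma-voom, in either contrast. With limma-voom and sample weights per line, fewer members were called higher in K562, at 46 of 49 over MEF and 44 of 49 over HPC-7. The edgeR fit used a common spread per gene for all lines. Replicates differed more within K562 (edgeR's estimate of spread 0.172) than within MEF (0.0835) or HPC-7 (0.09). The edgeR p-values of contrasts with K562 may therefore be too small, and those of MEF minus HPC-7 too large. When the symbols with several rows were included, CDCA3, CKS1B and SPC25 also had higher responses in K562 than in both mouse lines.

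The smallest p for K562 minus MEF belonged to AURKA, with a difference of 2.54 ± 0.11 (edgeR adjusted p = 8.5e-11), CCNB1 at 3.07 ± 0.15, PLK1 at 3.08 ± 0.15, CENPA at 2.49 ± 0.13 and CDCA8 at 2.99 ± 0.15. For K562 minus HPC-7 the smallest belonged to PLK1 at 2.65 ± 0.15 (edgeR adjusted p = 1.12e-09), AURKA at 1.80 ± 0.11, CDC25C at 2.07 ± 0.13, CCNB1 at 2.22 ± 0.15 and CDCA8 at 2.29 ± 0.15. PLK1, AURKA, CCNB1 and CDCA8 stood in both sets.

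Between the mouse lines, for MEF minus HPC-7, 16 of 49 members had a lower response in MEF, against 22.8% of all genes, and 0 a higher one, against 21.8%. One member was higher at an unadjusted p below 0.05, 18 were lower, and limma-voom called 2 higher and 19 lower. Leaving out HPC-7 HSP90i 2, the library with the weaker response, 7 were higher. The median difference was -0.30, and -0.09 without that library, beside 0.0043 over all genes. CENPA led with -2.06 ± 0.12 (edgeR adjusted p = 1.11e-09), followed by FBXO5 at -2.07 ± 0.28 (edgeR adjusted p = 1.66e-05), AURKA at -0.74 ± 0.11, CCNB1 at -0.85 ± 0.14 and NDC80 at -0.97 ± 0.17. The others called were ANLN, CKS2, CDC20, KIF23, ASPM, INCENP, CDCA8, NEK2, DLGAP5, TPX2 and PLK1, all with a larger fall in MEF. All 3 genes of the mitotic kinase group were among the 16, while CDK1, AURKB, BUB1 and TTK, kinases placed in other groups, were not.

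Other mitotic genes were read from 6 further lists of 111 genes. In K562 8 rose (7.21%, near the 5.11% of all genes) and 0 fell, against 5.97%, by edgeR's quasi-likelihood test, with a median log2 fold change of 0.09 (DESeq2 called 12 higher and 0 lower, and 3 were lower at an unadjusted p below 0.05). In MEF 4 rose (3.6%, against 35.1% of all genes) and 95 fell (85.6%, against 38.2%), with a median of -1.62. In HPC-7 6 rose (5.41%, against 36.5%) and 97 fell (87.4%, against 36.6%), with a median of -1.14. The 8 in K562 were FAM83D, KIF18A, CENPC, DEPDC1, HJURP, BORA, SPAG5 and CENPO. FAM83D, which brings casein kinase 1 to the spindle, rose by 1.25 ± 0.16 (edgeR adjusted p = 0.00243), and HJURP, the chaperone that deposits CENP-A, by 0.71 ± 0.12 (edgeR adjusted p = 0.0088). Hjurp fell by 1.89 ± 0.05 in MEF and by 1.03 ± 0.09 in HPC-7. BORA, the activator of Aurora A toward PLK1, rose by 0.62 ± 0.14 (edgeR adjusted p = 0.0271).

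By list, other kinases, phosphatases and entry regulators had 1 of 11 higher in K562 (9.09%, against 5.11% of all genes). In MEF 9 were lower (81.8%, against 38.2% of all genes) and 1 higher (9.09%, against 35.1%), and in HPC-7 11 were lower (100%, against 36.6%). Their smallest p belonged to Ccnf in MEF, which encodes cyclin F, at -2.54 ± 0.07, and to Mastl in HPC-7, the Greatwall kinase, at -2.13 ± 0.12. Other kinetochore and centromere genes had 3 of 33 higher in K562 (also 9.09%), 32 lower in MEF (97%, against 38.2%) and 33 lower in HPC-7 (100%, against 36.6%). They were led in MEF by Hjurp and in HPC-7 by Pmf1, a kinetochore MIS12 complex subunit, at -1.88 ± 0.10. Other spindle and cytokinesis genes had 4 of 29 higher in K562 (13.8%). In MEF 26 were lower (89.7%, against 38.2%) and 1 higher (3.45%, against 35.1%). In HPC-7 28 were lower (96.6%, against 36.6%) and 1 higher (3.45%, against 36.5%). Kif14, a cytokinesis motor, led in MEF at -3.08 ± 0.09, and Tacc3, a spindle protein, in HPC-7 at -1.45 ± 0.09.

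Condensin and cohesin genes had 0 of 14 called in K562 by edgeR or DESeq2, with 2 higher at an unadjusted p below 0.05, and NCAPD2, a condensin subunit, was nearest at 0.38 ± 0.13. In MEF 11 fell (78.6%, against 38.2% of all genes), led by Cdca5 (sororin, which protects cohesion) at -2.89 ± 0.08. In HPC-7 12 fell (85.7%, against 36.6%), led by Ncapd2 at -1.38 ± 0.08, and 1 rose (7.14%, against 36.5%). A list of 13 APC/C subunits with the co-activator FZR1 and the E2 enzyme UBE2S had 0 of 15 called in K562 by edgeR or DESeq2, with 1 higher and 1 lower at an unadjusted p below 0.05, and ANAPC7 was nearest at -0.42 ± 0.14. Of these, 9 fell (60%, against 38.2% of all genes) and 1 rose in MEF, with a median of -0.31, and 8 fell (53.3%, against 36.6%) and 2 rose in HPC-7, with a median of -0.39. Their leaders were Fzr1, the late activator CDH1, in MEF at -0.94 ± 0.05 and Ube2s, the chain-elongating enzyme, in HPC-7 at -0.91 ± 0.08. A list of 5 MuvB subunits, B-MYB and 3 NF-Y subunits had 0 of 9 called in K562 by edgeR or DESeq2, with 1 higher at an unadjusted p below 0.05, and NFYA, a CCAAT-binding subunit, was nearest at 0.65 ± 0.23. Of them 8 fell (88.9%, against 38.2% of all genes) and 1 rose in MEF, led by Lin54, the MuvB subunit that binds the CHR, at -2.30 ± 0.10. In HPC-7 5 fell (55.6%, against 36.6%) and 2 rose (22.2%, against 36.5%), led by Lin9, another MuvB subunit, at -1.25 ± 0.11, and Nfya was one that rose, at 0.31 ± 0.06.

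A list of 35 G1/S and DNA replication genes, whose transcripts peak earlier in the cycle, was read beside the members. In K562 0 rose, against 5.11% of all genes, and 5 fell (14.3%, against 5.97%) by edgeR's test, with a median log2 fold change of -0.30. At an unadjusted p below 0.05, 1 was higher and 17 were lower, and DESeq2 called 1 higher and 7 lower. MCM6, a helicase subunit, led at -0.64 ± 0.11 (edgeR adjusted p = 0.0104), and the others were UNG, E2F1, CCNE1 and MCM3. All 35 fell in MEF, against 38.2% of all genes, with a median of -1.67, led by Rrm2 (ribonucleotide reductase) at -3.62 ± 0.08. All 35 fell in HPC-7, against 36.6%, with a median of -2.61, led by Gmnn (geminin, the licensing inhibitor) at -2.30 ± 0.15.

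The mouse responses were also set beside the promoter motifs, as a description. In MEF the median log2 fold change was -2.11 for 31 members with a CHR motif and -1.96 for 13 without. In HPC-7 it was -2.0 for 31 with a CHR motif and -1.38 for 12 without. The ranges overlapped widely, from -4.47 to -0.75 with and -3.20 to -0.90 without in MEF, and from -3.83 to 0.48 with and -3.06 to -0.63 without in HPC-7. Ccnb1 and Cks2, which held no TTTGAA or TTCAAA match in the searched window, and Cdk1, which held 2, fell in both lines. Members without a match are not shown to lack a CHR, since other spellings were not searched.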

How the data were processed

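RNA-seq was analysed in 18 libraries, 3 HSP90i and 3 Control in each of K562, MEF and HPC-7. A count column named for DMSO was read as the Control library with its line and number. The authors deposited raw counts for each gene. The submitters' processing notes name featureCounts, TopHat2 2.0.13, Trim Galore, Picard, MACS2, Bowtie2 and DESeq2 and 4 builds (hg38, mm10, GRCh37 and GRCm38) without saying which was used where. Whether counting used strand is likewise not stated, so overlapping and antisense genes could share reads. The HSP90 ChIP-seq peak list was not used here.

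Members were matched by symbol, ignoring case; where K562 had several rows for a symbol, the row with most counts was used. Genes were filtered with filterByExpr, scaled with TMM and tested with the quasi-likelihood test of edgeR 4.0.16 (R 4.3.3) within each line, with Benjamini-Hochberg adjustment over all genes tested and a threshold of 0.05. SE is the log2 fold change divided by the square root of its F statistic. Differences between lines were interactions in a fit of 6 group means over 18 libraries, with each line's own TMM factors. Levels are TMM-scaled CPM and were not compared between genes.

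The members and all lists were chosen with earlier results of these data known. Values in every library are given for 10 members (CDK1, CCNB1, PLK1, CDC20, BIRC5, FBXO5, CKS2, FOXM1, MKI67 and TOP2A), and for the member with the smallest p in each of 9 role groups in each line. Also named were members called against the majority or not tested, the 5 smallest p per sign of each interaction, and the smallest p of each other list and line. Others named, such as those with the largest or smallest change, were chosen after their values were seen.

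Alternatives were upper quartile, RLE and no scaling factors, no filter, at least 1 CPM in 3 libraries, the replicate number as a block, DESeq2 1.42.0, limma-voom (limma 3.58.1), TMM over all 18 libraries, and each library left out in turn. Including symbols with several rows in the interaction was added after seeing the data. The procedures were also run on simulated counts, and the outcome is not given here. Those counts were drawn without outlying libraries, so they do not bear on calls that rest on individual libraries. The floor given for Pttg1 covers counting error only.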

Additional observations from a re-analysis of the deposited data

Results flagged for a closer look

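Differences between lines were flagged where the interaction itself passed edgeR's adjusted p of 0.05. For K562 minus MEF this held for 49 members, and the 5 with the smallest p were AURKA at 2.54, CCNB1 at 3.07, PLK1 at 3.08, CENPA at 2.49 and CDCA8 at 2.99 in log2 units. For K562 minus HPC-7 it held for 49 members, with PLK1 at 2.65, AURKA at 1.80, CDC25C at 2.07, CCNB1 at 2.22 and CDCA8 at 2.29. For MEF minus HPC-7 it held for 16 members, with CENPA at -2.06, FBXO5 at -2.07, AURKA at -0.74, CCNB1 at -0.85 and NDC80 at -0.97. Groups of 3 libraries are too small for a test of single outlying libraries.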

How the results depend on the processing

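In HPC-7, 51 members were lower and 1 higher under every alternative run, and in MEF the count of lower members ran from 50 to 53. In K562 the count of higher members was 16, 10 with library size alone, 25 with DESeq2, 24 without a filter, and 4 to 39 with 1 library left out, and 0 were lower in each. The shares of all genes called under the alternatives were not computed. Library size alone moved the median log2 fold change of all K562 genes to -0.13 and that of the members to 0.31. Members higher in MEF than HPC-7 numbered 0, 2 with limma-voom, and 0 to 7 with 1 library left out. The other interaction counts stayed within 1.5 times the main count, at 46 to 52 for K562 over MEF, 44 to 52 for K562 over HPC-7 and 14 to 19 for MEF below HPC-7. Replicate numbers are not stated to pair libraries, and same-numbered libraries correlated at 0.281, 0.042 and 0.451 in K562, 0.268, -0.223 and -0.245 in MEF and 0.006, 0.023 and -0.090 in HPC-7. With a replicate block, 24 members were higher in K562, 50 lower in MEF, and 51 lower and 1 higher in HPC-7, and the interactions gave 49, 49 and 16. Changes of sign occurred in K562 among members not called in the main comparison. With library size alone MAD2L1 was at -0.085, FBXO5 at -0.032 and SPC25 at -0.055, and with upper quartile factors MAD2L1 was at -0.047 and SPC25 at -0.026. With 1 library left out, FOXM1 ran from -0.135 to 0.115, BIRC5 from -0.162 to 0.205, MAD2L1 from -0.048 to 0.070, FBXO5 from -0.056 to 0.192, SMC2 from -0.024 to 0.334 and SPC25 from -0.013 to 0.112. The cause was not tested. Depth limits UBE2C most in K562, at 3 to 7.48 CPM.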
